A study of Mus musculus with 2 samples.

Results

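The 9 genes described here are 7 transcription factors linked to progenitors (Sox4, Tcf7, Lef1, Bcl11a, Bach2, Myb and Mycl) and the cytokine receptors Flt3 and Kit, chosen by name from the 17751 genes of the expression tables. They were read in splenic dendritic cells (DCs) of a WT library and a Batf3-/- library, in each of the 20 deposited clusters (C0 to C19). WT and Batf3-/- mice were C57BL/6 females aged 8 weeks, and the Batf3-/- mice lack the transcription factor Batf3 in all tissues. The study obtained WT mice from a supplier, whereas Batf3-/- mice, bought from another supplier, were bred in house. Mouse source therefore cannot be told apart from genotype. Each library pooled the spleens of 6 mice, and live MHCII+ CD11c+ cells were sorted after depletion of T and B cells. The experiment was performed once. Since a genotype is a single library, no difference between genotypes can be tested, and every interval below covers counting error only.

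Conventional DCs (cDCs) arise from bone marrow progenitors through a pre-DC stage, under Flt3 ligand acting on Flt3, and split into cDC1, which need Batf3, and cDC2. Plasmacytoid DCs (pDCs) depend on Tcf4 and on Bcl11a, a zinc finger factor. Sox4, Tcf7 and Lef1 are factors with an HMG box, the last pair of which work with beta-catenin in lymphocytes. Bach2 is a repressor of the BTB and bZIP class, Myb maintains blood progenitors, Mycl is the Myc family member used by DCs, and Kit is the receptor for stem cell factor.

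The WT library held 12224 cells with 122530055 unique molecular identifiers (UMIs), and the Batf3-/- library held 12119 cells with 114517073 UMIs. Batf3 itself was read at 206 UMIs per 1000000 UMIs (CPM) in WT and at 2.49 CPM in Batf3-/-. The libraries shared 56 cell barcodes. The clusters were built from the same transcripts, so that differences between clusters describe them and test nothing. All 9 genes are protein-coding in the mouse genome build GRCm38 (GENCODE M21). The factors lie as follows: Sox4 at chr13:28948919-28953713, Tcf7 at chr11:52252371-52283014, Lef1 at chr3:131110471-131224356, Bcl11a at chr11:24078056-24174123, Bach2 at chr4:32238804-32586108, Myb at chr10:21124935-21160984 and Mycl at chr4:122995652-123002485. The receptors are Flt3 at chr5:147330741-147400489 and Kit at chr5:75574916-75656722, and Sox4, Tcf7, Myb and Flt3 are on the minus strand.

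The promoter windows of Sox4 and Flt3 are shown because these genes were the members whose ratio between the libraries pointed one way in nearly every cluster. Each window holds the 250 bases before the RefSeq transcript start (GRCm38.p6, minus strand of the genome, 5′ to 3′), at chr13:28953700-28953949 for Sox4 and chr5:147400490-147400739 for Flt3.
Sox4: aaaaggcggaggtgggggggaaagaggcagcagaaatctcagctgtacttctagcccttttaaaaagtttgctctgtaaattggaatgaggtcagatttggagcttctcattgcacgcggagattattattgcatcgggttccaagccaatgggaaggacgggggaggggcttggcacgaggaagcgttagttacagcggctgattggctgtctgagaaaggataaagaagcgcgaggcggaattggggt
Flt3: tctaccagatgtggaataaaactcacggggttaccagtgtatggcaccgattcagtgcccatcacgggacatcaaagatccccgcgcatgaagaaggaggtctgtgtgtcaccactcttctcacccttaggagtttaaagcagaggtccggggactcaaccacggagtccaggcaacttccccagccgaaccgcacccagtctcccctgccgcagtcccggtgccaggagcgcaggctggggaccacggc
No base is in capitals because none of the motifs searched on both strands was present in either window. These were the AP-1 motif TGANTCA, the E-box CACGTG and the TATA motif TATAAA, which were present in 6.75%, 6.02% and 12.4% of 32851 windows of this length. The AP-1 motif, the kind bound by Batf3 and its partners, was in the windows of 0 of the 9 genes. A count of 0 is near what a share of 6.75% gives for 9 genes. Sequence outside these windows was not searched, and binding was not measured.

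Sox4 was highest in C3, which the study named Sox4+ cDC after its most significant gene in these same libraries. The rank of C3 is therefore not independent evidence. Sox4 reached 533 CPM (95% Poisson interval 515 to 552) in C3 of WT and 574 CPM (562 to 586) in C3 of Batf3-/-. The next cluster was C9 in both libraries, at 138 and 221 CPM, and its interval did not overlap that of C3. The study describes C9 and C17 as high in mitochondrial transcripts, and the median cell of C9 held 1467 UMIs in WT and 1487 in Batf3-/-. In WT, C9, C5 and C16 lay at 138, 130 and 123 CPM, and each interval overlapped the next. Sox4 was lowest among the large DC clusters in C4 and C6, which the study groups with cDC1, at 8.19 and 11.4 CPM in WT. In C17 and C18 of WT no Sox4 UMI was read, which allows up to 12.8 and 6.04 CPM.

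After each cell was thinned to 1000 UMIs, 33.1% of WT and 35.1% of Batf3-/- cells of C3 held a Sox4 UMI, against 0.545% of WT cells of C4, whose median depth was 15398.5 UMIs against 8589.5 in C3. Without thinning the shares in C3 were 74.4% and 77.3%. The median cell of C3 held 3 Sox4 UMIs in both libraries, and the highest cell held 48 in WT and 69 in Batf3-/-. C3 thus contributed 41.7% of all Sox4 UMIs in WT and 51.3% in Batf3-/-, beside 5.04% and 13.2% of all UMIs.

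**Figure D1:**
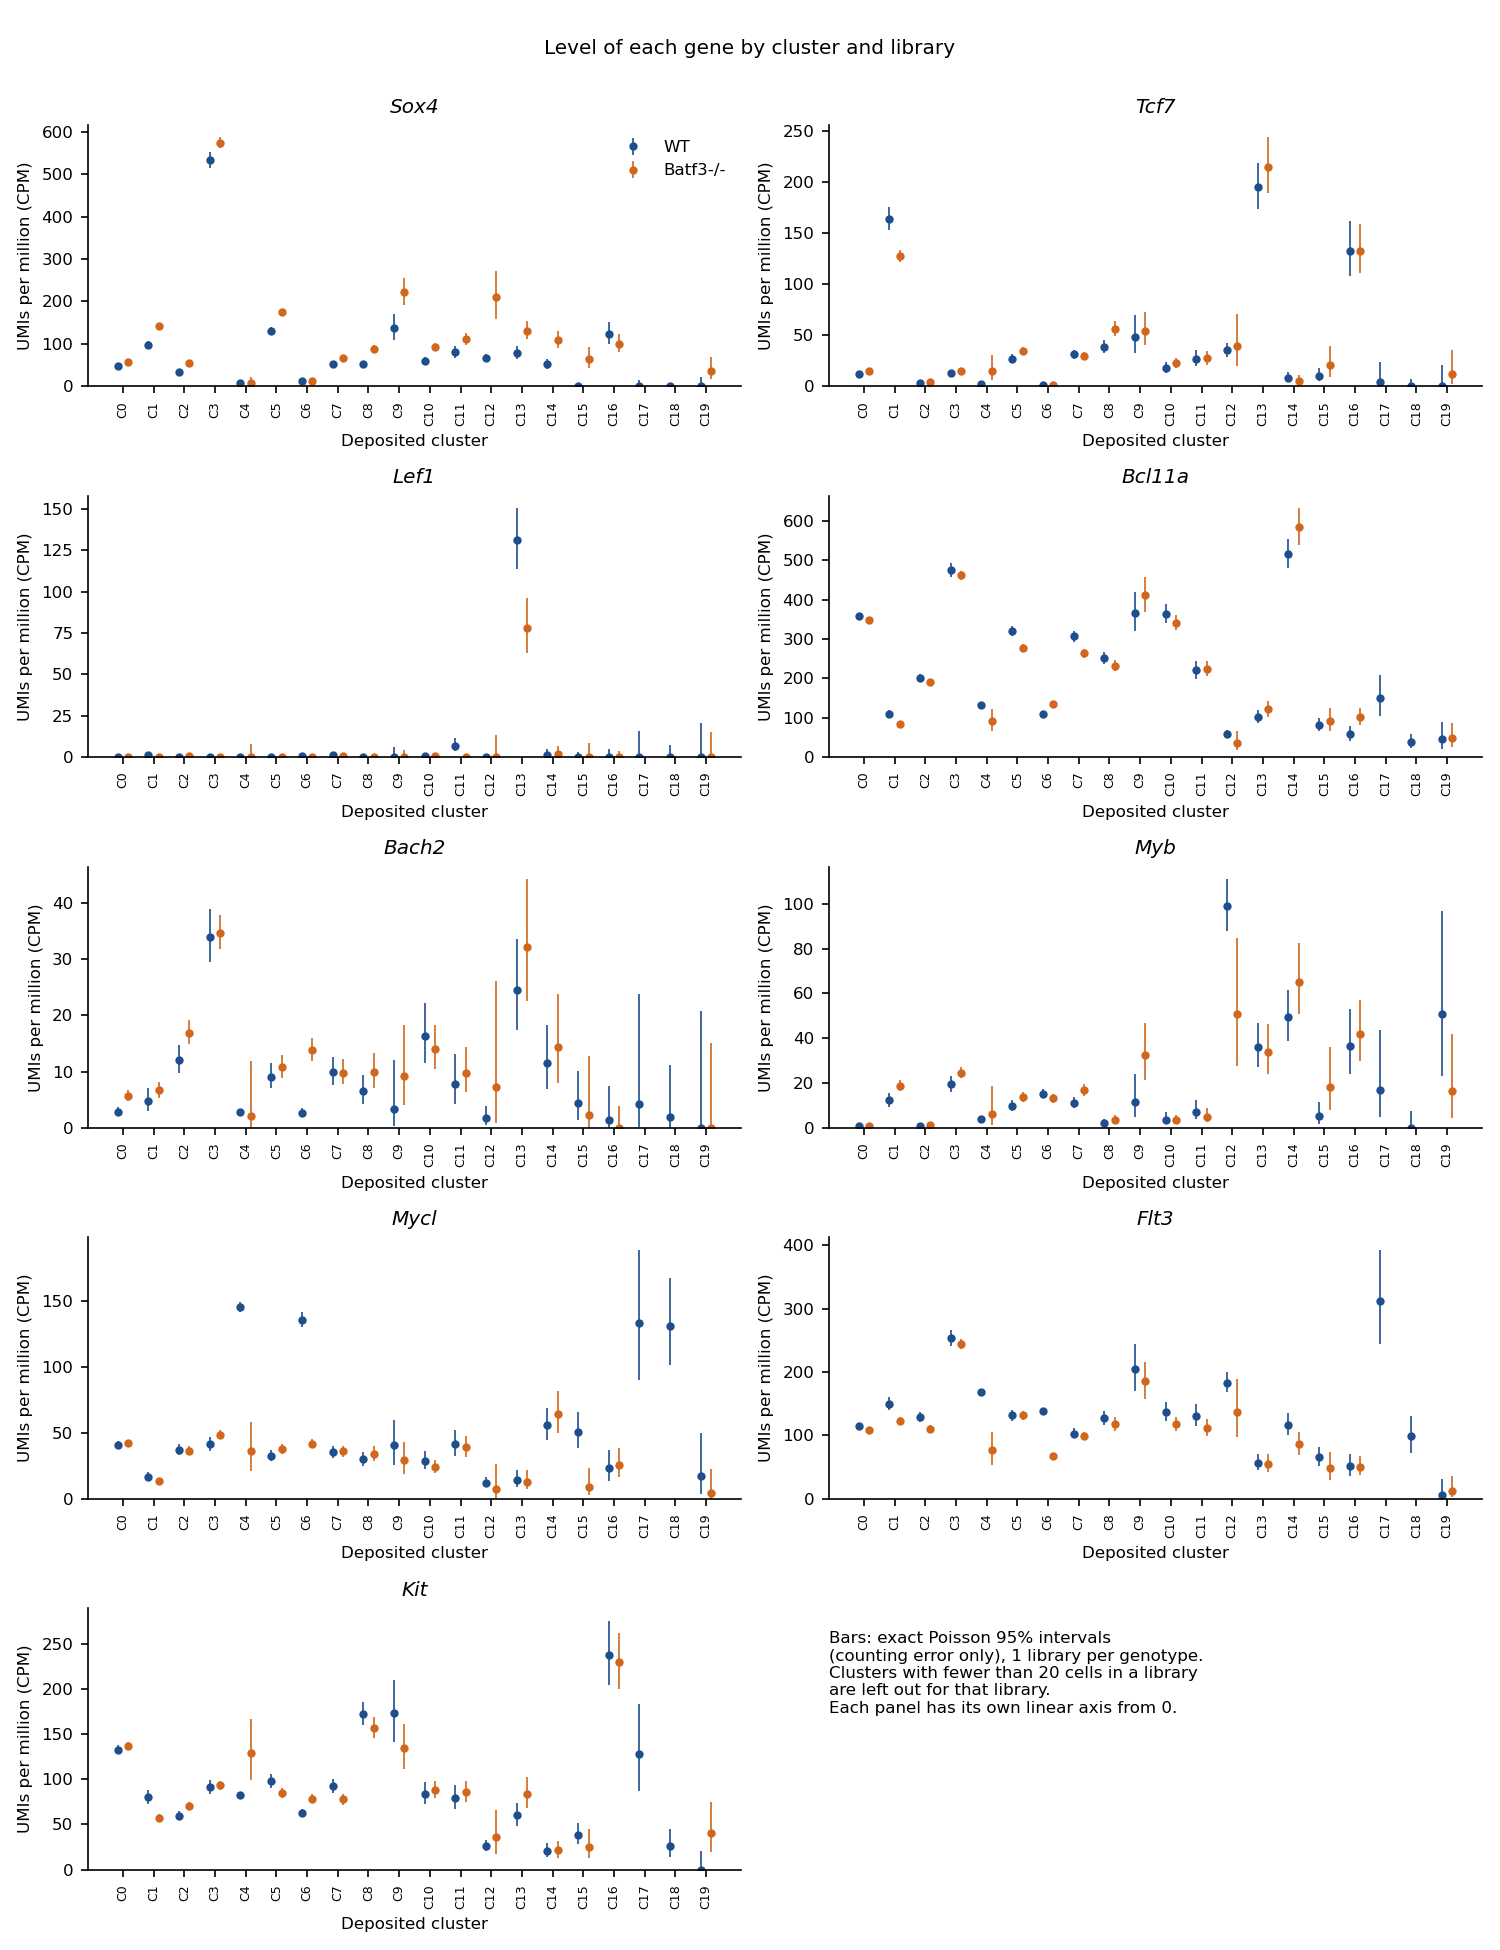
Level of each gene in CPM (linear axis from 0, scaled per panel) by deposited cluster, for WT and Batf3-/- libraries, with exact Poisson 95% intervals. Sox4 stands highest in C3 (533 and 574 CPM), Lef1 is near 0 outside C13, Kit is highest in C16 (238 and 230 CPM), and Mycl in C6 is lower in Batf3-/- (135 and 41.5 CPM).

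Of the other factors, Bcl11a and Bach2 were also high in C3. Bcl11a was highest in C14, the pDC cluster, at 516 CPM in WT and 584 CPM in Batf3-/-. C3 was second, at 475 and 461 CPM, and the intervals of C14 and C3 overlapped in WT but not in Batf3-/-. All 8 pDC markers were detected in C14, with a summed level of 12968 CPM in WT and 13240 CPM in Batf3-/-. In C3 the same markers summed to 1329 and 1370 CPM. Bach2 was read at far fewer UMIs, with 210 in WT and 527 in Batf3-/- C3, or 34.0 and 34.8 CPM. Its next cluster was C13, at 24.5 and 32.1 CPM, with overlapping intervals.

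Set against the pooled other DC clusters of the same library, C3 had 4 of 8 members with enough counts at least 2-fold higher in WT (3.59% of all genes) and 1 at least 2-fold lower (5.78%). The 4 were Sox4 (13.9-fold), Bach2 (6.97-fold), Myb (2.32-fold) and Bcl11a (2.27-fold), and Mycl was the lower gene. In Batf3-/- 5 of 8 were higher (2.07%), namely Sox4 (7.07-fold), Bach2 (3.35-fold), Myb (2.87-fold), Flt3 (2.26-fold) and Bcl11a (2.03-fold), and Tcf7 was lower (5.03%). Both counts of higher members include Sox4, the gene after which the study named C3. The comparison pool differed, since it held 2202 C4 cells in WT and 31 in Batf3-/-. It left out C3, C9, C13, C14, C15, C16, C17 and C19. Of these, C14 stood above C3 for Bcl11a, and C13, C14 and C16 stood above C3 for Myb, in both libraries. Kit in C3 was level with the other DC clusters, at 91.5 against 91.1 CPM in WT and 93.2 against 92.5 CPM in Batf3-/-.

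Tcf7, the gene of TCF-1, marked other cells. It was highest in C13, at 195 CPM in WT and 215 CPM in Batf3-/-, followed in WT by C1 (164 CPM) and C16 (133 CPM) and in Batf3-/- by C16 (133 CPM) and C1 (128 CPM). The interval of C1 overlapped that of C13 in WT, and C1 and C16 overlapped in Batf3-/-. In C3 Tcf7 stood at only 12.6 and 15.3 CPM, and in C6 at 1.73 and 1.34 CPM.

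Lef1 was high only in C13, with 203 UMIs (131 CPM) in WT and 90 UMIs (78.1 CPM) in Batf3-/-, and the next cluster, C11 of WT, held 12 UMIs. C13 is the cluster in which the deposited SingleR labels put T, NK, NKT and innate lymphoid cells (ILCs) beside DCs. Among WT cells of C13, the 56 labelled T cells had Lef1 at 475 CPM (392 to 571), whereas the 45 labelled ILC had 25.9 CPM and the 45 labelled DC had 76.3 CPM. Tcf7 was high both in WT cells labelled T (300 CPM) and in those labelled ILC (289 CPM). Kit was 104 CPM in the WT ILC-labelled cells and had 0 UMIs in the T-labelled cells. In WT the levels of Lef1 and Kit thus differed between the T-labelled and the ILC-labelled cells, and that of Tcf7 did not. A Lef1 UMI was in 75% of the T-labelled and 11.1% of the ILC-labelled cells, and a Kit UMI in 46.7% of the ILC-labelled cells. The labels were given from transcripts of the same cells, so these differences describe the labels and test nothing. In WT 41 of the 241 cells of C13 were called as doublets, against 4 of 146 in Batf3-/-.

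Kit was highest in C16, a cluster of 58 WT and 68 Batf3-/- cells whose leading genes included Tdh and Prr29 and in which 57 and 68 cells were labelled DC. Kit stood there at 238 CPM (204 to 276) in WT and 230 CPM (200 to 262) in Batf3-/-, with a UMI in 86.2% and 89.7% of cells. In WT C9 and C8 followed, at 173 and 172 CPM, with the interval of C9 (141 to 210 CPM) overlapping that of C16, and in Batf3-/- C8, C0 and C9, at 157, 137 and 134 CPM. Over the other DC clusters C16 had 4 members of 7 at least 2-fold higher in WT (12.3% of all genes), namely Sox4, Tcf7, Myb and Kit. Bcl11a, Mycl and Flt3 were at least 2-fold lower (8.34%). In Batf3-/- the higher members were Tcf7, Myb and Kit (10.1%) and the lower ones Bcl11a and Flt3 (8.29%). C14 was the opposite for Kit, at 20.5 and 21.1 CPM. Bcl11a and Myb were at least 2-fold higher in C14 in both libraries (10.9% of all genes in WT, 11% in Batf3-/-), and Tcf7 and Kit lower (8.11% and 10.1%).

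Myb was highest in C12 of WT, at 99.1 CPM from 294 UMIs, with an interval overlapping that of the next cluster, C19 (50.9 CPM from 9 UMIs). In C14 it stood at 49.3 CPM in WT and 65.2 CPM in Batf3-/-, and in C16 at 36.5 and 41.8 CPM. Over the cells of C0, C5, C7, C8 and C10 pooled, Myb was 1.06 CPM in WT and 1.47 CPM in Batf3-/- cells called G1 by the deposited cell cycle phase, 9.15 and 13.6 CPM in cells called S, and 7.05 and 10.2 CPM in cells called G2M. This pool mixes clusters of unlike Myb level. Within C0, cells called G1 and S had 0.907 and 1.14 CPM in WT and 0.835 and 0.784 CPM in Batf3-/-, with overlapping intervals. Phase was called from transcripts of the same cells.

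Mycl was high in 4 of the 5 clusters that the study groups with cDC1, and Flt3 in some of them. In WT Mycl stood at 145 CPM in C4, 135 CPM in C6, 133 CPM in C17 and 131 CPM in C18, with overlapping intervals, and was 41.1 CPM in C3. In C12, the remaining cDC1 cluster, it was 12.1 CPM, the lowest of all 20 clusters of WT. Flt3 was highest in WT in C17 (313 CPM, from 73 UMIs, at a median of 2348 UMIs per cell), with an interval overlapping that of C3 (254 CPM), and stood at 183 CPM in C12, 168 CPM in C4, 138 CPM in C6 and 98.7 CPM in C18. In Batf3-/-, C3 was highest for Flt3 at 244 CPM, above C9 (185 CPM) with no overlap.

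C19 carries the SingleR label of stem cells for 22 of 29 WT and 24 of 36 Batf3-/- cells. Its leading genes included Rhd, Slc4a1 and Rhag, genes of the red cell membrane. Of the listed erythroid markers, Klf1, a transcription factor of red cell precursors, stood at 469 CPM in WT and 249 CPM in Batf3-/-, and Car1, a carbonic anhydrase of red cells, at 1227 and 1313 CPM. In WT C19 no UMI of Sox4, Tcf7, Bach2, Lef1 or Kit was read, with 1 UMI of Flt3 and 9 of Myb, at a median depth of 2918 UMIs per cell. In Batf3-/- C19, at 5249.5 UMIs per cell, there were 10 UMIs of Kit (40.8 CPM), 9 of Sox4 (36.7 CPM), 4 of Myb and 3 each of Tcf7 and Flt3. Against the other DC clusters 1 of 6 members, Myb (6.07-fold), was at least 2-fold higher in WT C19 (18.7% of all genes) and 5 were lower (36.8%). In Batf3-/- 0 of 7 were higher (13.9%) and 6 lower (35.9%). Of 22 other progenitor genes listed, 5 were measured in C19 of each library, and 3 were at least 2-fold higher, namely Gata1, Lmo2 and Tal1 in WT and Gfi1b, Lmo2 and Tal1 in Batf3-/-, while 1 in WT and 2 in Batf3-/- were at least 2-fold lower. These factors also act in red cell precursors.

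The first question of the design was whether loss of Batf3 went with other levels of these genes inside C3, whose share of cells was 5.76% in WT and 12.7% in Batf3-/-. Within C3, 0 of the 8 members with enough counts differed by at least 1.5-fold in either direction (0.4% of 7255 genes were higher and 0.303% lower). The log2 ratio of Batf3-/- over WT was 0.11 (0.05 to 0.17) for Sox4, −0.04 (−0.11 to 0.02) for Bcl11a, 0.03 (−0.20 to 0.27) for Bach2, −0.06 (−0.15 to 0.02) for Flt3 and 0.03 (−0.12 to 0.17) for Kit. Myb had the largest ratio, at 0.35 (0.05 to 0.66), from 19.4 and 24.7 CPM. Tcf7 had 0.28 (−0.10 to 0.67) and Mycl 0.24 (0.03 to 0.45). The intervals of Myb and Tcf7 reached past the 1.5-fold limit. For Sox4, Bcl11a, Flt3 and Kit the intervals in C3, which cover counting error only, lay well inside the 1.5-fold limit.

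Over all clusters, 113 pairs of gene and cluster had enough counts, of which 14 were at least 1.5-fold higher in Batf3-/- and 9 at least 1.5-fold lower. No member passed in either direction in C0 (0.634% of all genes higher and 0.62% lower), C5 (0.841% and 0.706%) or C11 (3.45% and 4.77%). Where only higher members passed, C1 (1 of 7 members; 1.31% of genes higher and 1.77% lower), C2 (1 of 6; 0.618% and 1.08%), C8 (1 of 6; 2.09% and 2.02%) and C10 (1 of 7; 1.86% and 2.45%) had few genes past the fold. In C9 (2 of 7; 11% and 8.86%), C14 (1 of 7; 5.06% and 7.35%) and C16 (1 of 7; 8.67% and 9.32%), a larger share of all genes passed it.

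Sox4 was higher in Batf3-/- in most clusters. With C3 included, its ratio was above 0 in 15 of 16 clusters with enough counts, the interval lay above 0 in 14, and the median log2 ratio was 0.61. These clusters share the same libraries, so they are not separate observations. How many of all genes kept the same sign as often is not given here. In C2 Sox4 was 33.7 CPM in WT and 54.3 CPM in Batf3-/-, with a log2 ratio of 0.69 (0.49 to 0.89). The values in C8 were 52.8 and 88.5 CPM (0.74, 0.50 to 0.99) and in C10 58.6 and 92.2 CPM (0.65, 0.37 to 0.95). The study groups these 3 clusters with Sirpa+ DCs, and in each the intervals of the levels did not overlap. In C14 Sox4 was 52.6 and 109 CPM (1.06, 0.64 to 1.48). Of the C14 cells, 25 of 154 in WT and 14 of 101 in Batf3-/- were called as doublets. The 132 and 93 cells of C14 labelled DC had Sox4 at 37.9 and 92.6 CPM. C1 lay just under 1.5-fold, at 96.7 and 143 CPM (0.56, 0.42 to 0.71), and had 0.84 in cells called G1 alone. The remaining clusters past 1.5-fold were C9, C12, C13 and C15, where 11%, 16.5%, 7.51% and 11.8% of all genes were also at least 1.5-fold higher. The ratio fell below the 1.5-fold limit in C8 (0.44), C9 (0.49) and C13 (0.42) with each cell weighing the same, and in C8 (0.53) and C13 (0.49) without cells called as doublets, while C1 (0.59) and C11 (0.64) passed it with each cell weighing the same.

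Some of these clusters rest on few counts. C12 of Batf3-/- had 31 cells and 58 Sox4 UMIs. In C15, the monocyte cluster, Sox4 had 2 UMIs in WT and 28 in Batf3-/-, in 2 and 12 cells, while the summed neutrophil markers were 12199 and 28287 CPM and the summed monocyte markers 13452 and 20083 CPM, whose part in the ratio was not tested. In C19 Sox4 had 0 UMIs in WT and 9 in Batf3-/-, too few to be counted. In the cDC1 clusters C6 and C4 the levels were low in both libraries: C6 had 11.4 CPM in WT and 12.3 CPM in Batf3-/- (log2 ratio 0.11, −0.21 to 0.42) and C4 had 280 UMIs in WT and 4 in Batf3-/-, near 8 CPM in both. In C16 Sox4 was 123 CPM in WT and 99.8 CPM in Batf3-/- (−0.30, −0.74 to 0.13). The share of C3 cells, which hold 41.7% of the Sox4 UMIs of WT and 51.3% of those of Batf3-/-, moved with these ratios, and its part in them was not tested.

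**Figure D2:**
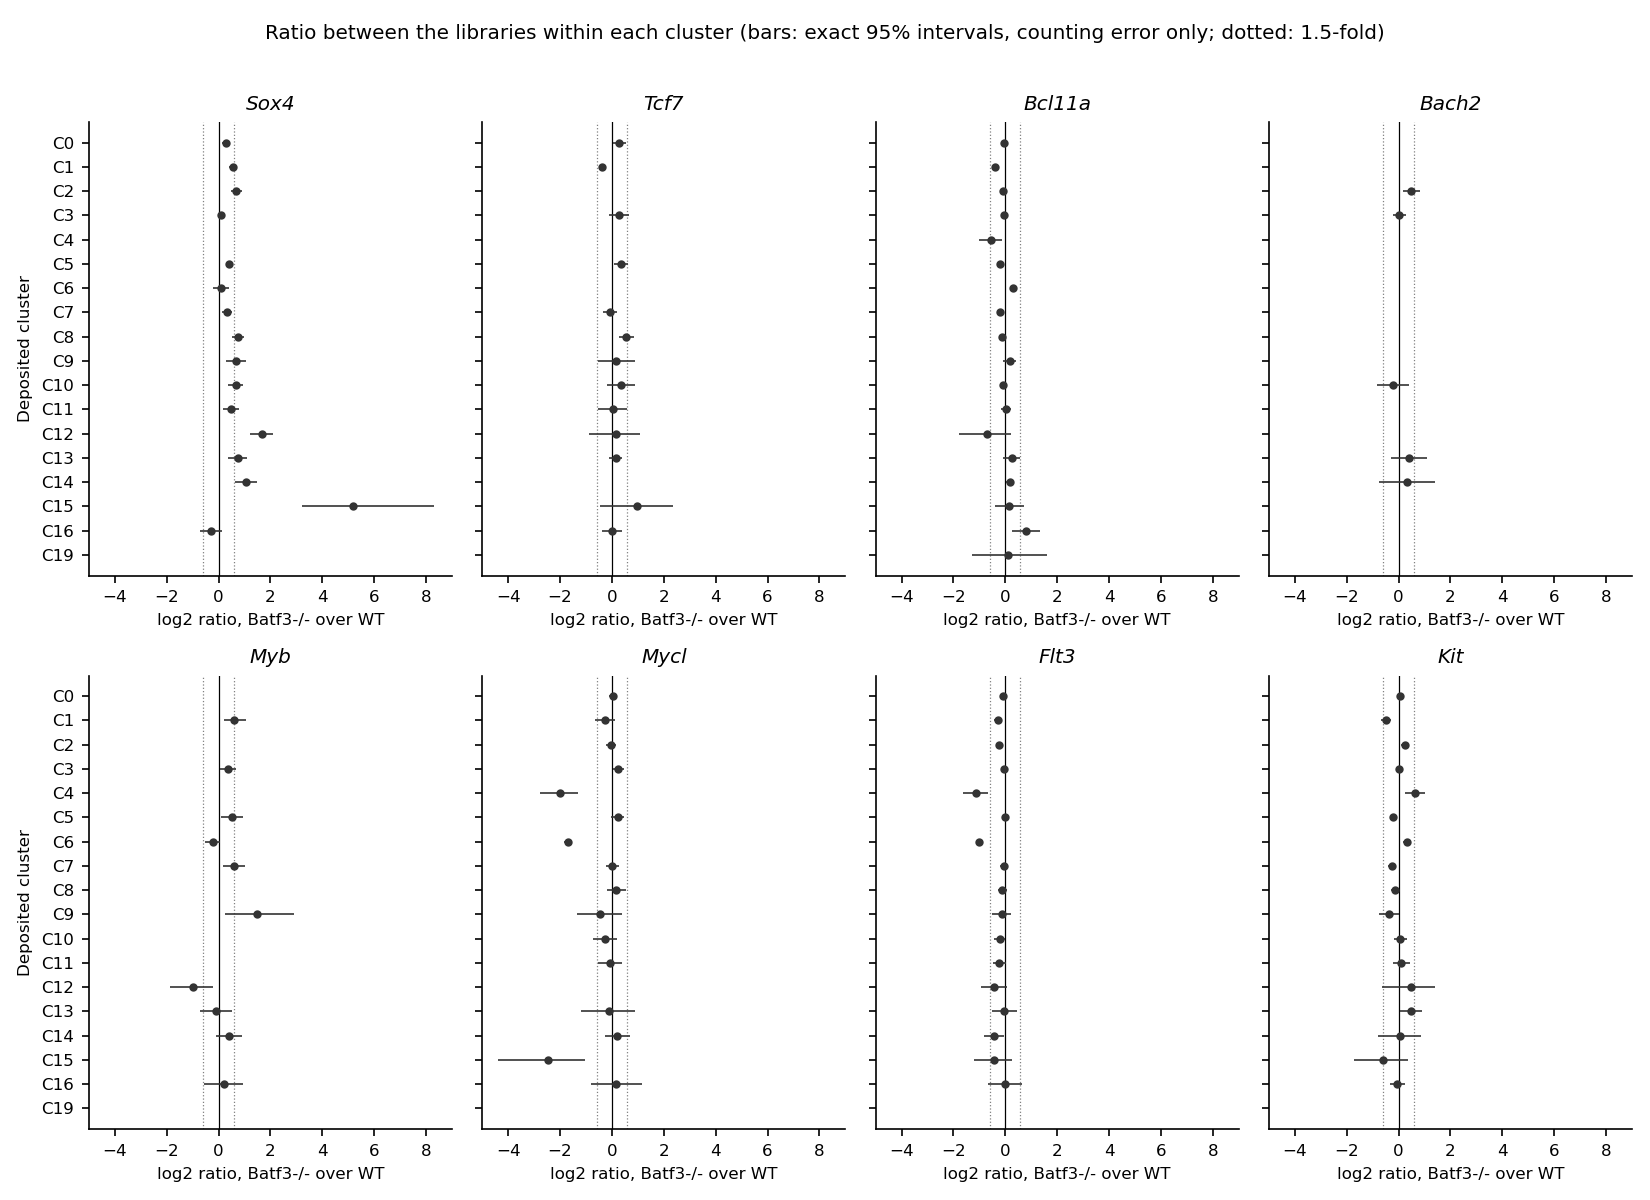
The log2 ratio of Batf3-/- over WT (horizontal axis) for 8 of the 9 genes in each cluster with enough counts (vertical axis), with exact 95% intervals and dotted lines at 1.5-fold. Sox4 lies right of 0 in 15 of 16 clusters and Flt3 left of 0 in 17 of 17 (in C5 at −0.0040), with Flt3 and Mycl farthest left in C4 and C6 (Mycl also in C15).

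The ratio of Flt3, in contrast, was below 0 in 17 of 17 clusters, although the median log2 ratio was only −0.22 and the interval lay below 0 in 6. These clusters share the same libraries, and how many of all genes kept the same sign throughout is not given here. Among genes with enough counts, 24.1% in C0, 29.7% in C3 and 38.0% in C7 had a ratio as low or lower. In C6 and C4 the shares were 2.11% and 2.77%. In C5 Flt3 was level, at a ratio of −0.0040 beside a median of −0.0089 over all genes. The difference was larger in C6 and C4, which the study groups with cDC1. In C6, with 797 WT and 727 Batf3-/- cells, Flt3 was 138 CPM (2156 UMIs) in WT and 68.2 CPM (918 UMIs) in Batf3-/-, a log2 ratio of −1.02 (−1.13 to −0.90). In C4 it was 168 CPM in WT and 76.5 CPM in Batf3-/- (−1.13, −1.65 to −0.66), the latter from 31 cells. In C1 it was 150 and 123 CPM (−0.29, −0.42 to −0.17) and in C2 129 and 110 CPM (−0.22, −0.34 to −0.11).

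Mycl, like Flt3, was lower in C6 and C4 of Batf3-/-. In C6 it was 135 CPM (2119 UMIs) in WT and 41.5 CPM (559 UMIs) in Batf3-/-, a log2 ratio of −1.71 (−1.84 to −1.57). In C4 it was 145 and 36.1 CPM (−2.01, −2.79 to −1.33). Both genes were the 2 of 6 members at least 1.5-fold lower in C6 (4.67% of all genes, with 5.02% higher) and the 2 of 4 in C4 (9.97%, with Kit the 1 member higher, beside 15% of genes). Mycl was also lower in C15, with 58 UMIs in WT and 4 in Batf3-/- (2 of 6 members lower with Kit, beside 12.7% of genes). Another 2 of 6, Sox4 and Tcf7, were higher in C15 (beside 11.8% of genes), with Tcf7 at 12 and 9 UMIs (10.5 and 20.6 CPM). In C0, C2 and C7 the ratios of Mycl were 0.03, −0.03 and 0.02. The 7 cDC1 markers, all detected in C6, summed there to 3690 CPM in WT and 1213 CPM in Batf3-/-, lower beside Mycl and Flt3. The 7 cDC2 markers, all detected in C6, summed to 44.2 CPM in WT and 201 CPM in Batf3-/- there, and the 8 monocyte markers to 355 and 608 CPM. In C4 the cDC1 markers summed to 4303 and 2282 CPM, the cDC2 markers to 54.5 and 172 CPM and the monocyte markers to 397 and 385 CPM. In C15 the cDC1 markers summed to 1356 CPM in WT and 378 CPM in Batf3-/-. The part of these markers in the ratios of C6, Bach2 included, of C4 and of C15 was not tested.

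The lower levels in C6 were seen among cells called S and among those called G2M. Mycl was 134 CPM in WT and 38.4 CPM in Batf3-/- cells called S, and 139 and 45.5 CPM in those called G2M. Flt3 was 144 and 68.8 CPM in S, and 128 and 61.7 CPM in G2M. Bach2 went the other way in C6, from 41 UMIs (2.62 CPM) to 187 UMIs (13.9 CPM), a log2 ratio of 2.41 (1.91 to 2.93) in a gene whose mean level was below the 10 CPM needed to be counted. It was 2.47 and 10.6 CPM in S and 2.61 and 14.99 CPM in G2M. The cells of C6 called G1 numbered 189 in Batf3-/- and under 20 in WT, and were not compared.

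Relatives of Mycl and Tcf7 in C6, named after their values were seen, lay in different directions. Myc itself was 19.9 CPM in WT and 38.6 CPM in Batf3-/- C6 (0.96, 0.75 to 1.17), the 1 of 10 measured genes of the Myc and Max network that was past 1.5-fold, beside the 5.02% of all genes higher and 4.67% lower in C6. Tcf7l2 was 18.99 CPM in WT and 8.84 CPM in Batf3-/- (−1.10, −1.42 to −0.79), the 1 of 12 measured Wnt and TCF pathway genes past the fold. Single genes of lists this short are near what these shares give. Max, the shared partner of the Myc proteins, was 41.1 and 49.4 CPM (0.26, 0.11 to 0.42).

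The receptors' pathway was measured by 18 listed genes, of which 12 had enough counts. In C3, 0 of 12 were past 1.5-fold in either direction (0.4% of all genes higher and 0.303% lower), with a median log2 ratio of 0.08 against 0.01 over all genes. In C6 also 0 of 12 were past the fold (5.02% of all genes higher and 4.67% lower), with a median of 0.09 against 0.01. Counts of 0 are near what these shares give for a list this short. Stat5a, a transducer of Flt3 and Kit signals, was 18.9 and 28.2 CPM in C6 (0.58, 0.35 to 0.80), just inside the limit. Cblb, a ubiquitin ligase that turns such receptors off, was 23.7 and 17.4 CPM (−0.44, −0.69 to −0.20). Kit in C6 was 63.2 and 78.5 CPM (0.31, 0.19 to 0.44), opposite in sign to Flt3.

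The remaining members gave ratios of both signs. Kit had 10 ratios above and 7 below 0, with the lowest interval in a large cluster in C1, from 79.9 to 57.0 CPM (−0.49, −0.66 to −0.31). Tcf7 was also lower in C1, at 164 and 128 CPM (−0.36, −0.48 to −0.24), while in C8 it was 38.6 and 56.6 CPM (0.55, 0.26 to 0.85). C1 held 5.90% of WT and 15.2% of Batf3-/- cells. Myb was past 1.5-fold higher in C1 (12.3 and 18.7 CPM), in C7 (11.1 and 16.7 CPM; 1 of 7 members, beside 0.671% of genes higher and 0.993% lower) and in C9. It was past it lower in C12, where Bcl11a was too (2 of 6 members, beside 16% of genes lower). Bcl11a had 8 ratios above and 10 below 0. In C16 it was 58.2 and 101 CPM (0.79, 0.26 to 1.35). Lef1 had enough counts only in C13, with a log2 ratio of −0.75 (−1.12 to −0.38) where 6.17% of genes were at least 1.5-fold lower. The T-labelled share of C13 was 23.2% in WT and 13.01% in Batf3-/-, and its part in the Lef1 ratio was not tested.

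Over whole libraries the ratios of some members differed from those with equal cluster shares. Sox4 was 64.4 CPM in WT and 148 CPM in Batf3-/- over all cells, a log2 ratio of 1.20. With both libraries given the same cluster shares, over the 18 clusters with at least 20 cells in each, the log2 ratio was 0.34 (0.30 to 0.39), against 0.99 over the same clusters with each library's own shares. For Bach2 the values were 1.05 over all cells, 0.86 with own shares and 0.41 (0.26 to 0.55) with equal shares. Tcf7 went from 0.72 over all cells to 0.01 (−0.08 to 0.10), but this value depended on the shares used, at 0.15 with the cluster shares of WT and −0.091 with those of Batf3-/-. Mycl went from −1.13 to −0.54 (−0.80 with WT shares and −0.21 with Batf3-/- shares), and Flt3 was −0.21 over all cells and −0.26 with equal shares (−0.35 and −0.17). Bcl11a turned direction, from 0.22 (0.20 to 0.24) over all cells to −0.074 (−0.10 to −0.043) with equal shares, whereas Myb had 0.26 both ways. Kit was 90.5 and 92.9 CPM, with ratios of 0.04 and 0.03, and had 0.11 with WT shares and −0.047 with Batf3-/- shares.

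**Figure D3:**
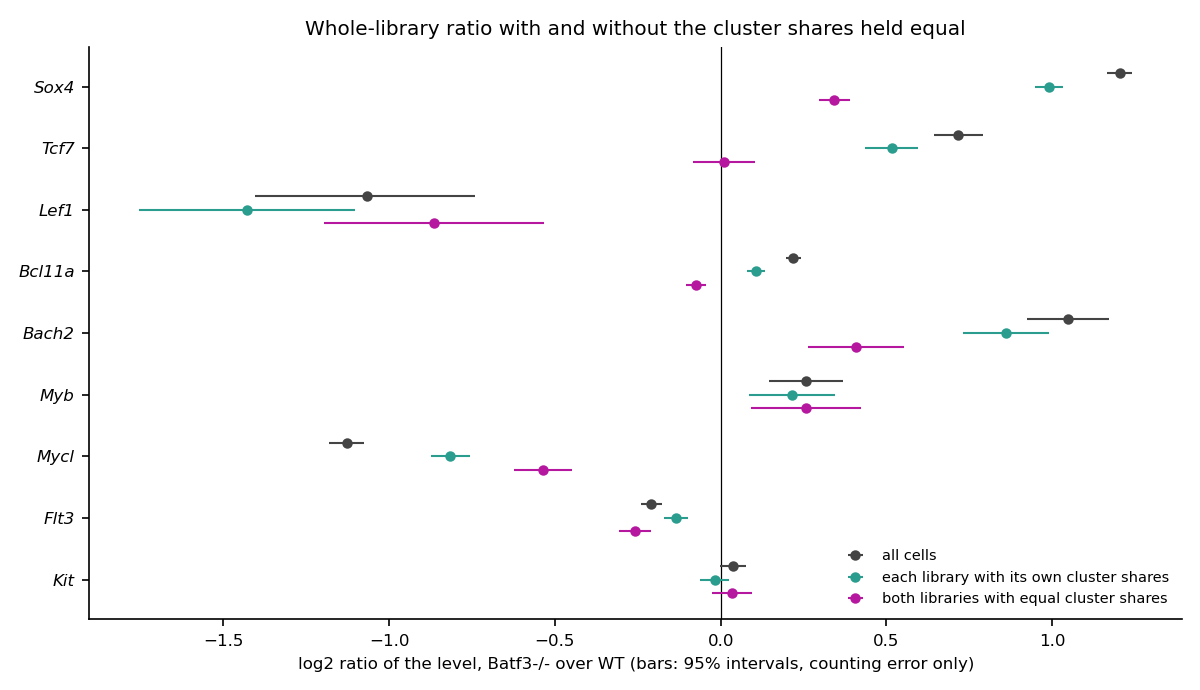
The log2 ratio of the level in Batf3-/- over WT (horizontal axis) for each gene, over all cells, with each library's own cluster shares, and with equal cluster shares, with 95% intervals. For Sox4 the 3 ratios are 1.20, 0.99 and 0.34, and for Tcf7 the last is 0.01.

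Within C3 the members were not spread evenly. Cells of C3 with a UMI of Ccr2, a chemokine receptor of monocytes and of some DCs, numbered 225 in WT and 568 in Batf3-/-, and those without numbered 479 and 973. Sox4 was 299 CPM with and 666 CPM without Ccr2 in WT, and 305 and 767 CPM in Batf3-/-. Tcf7 followed Sox4, with 2 UMIs (0.897 CPM) with and 19.3 CPM without Ccr2 in WT, and 2.36 and 24.6 CPM in Batf3-/-. Kit was 65.5 and 106 CPM in WT and 58.5 and 118 CPM in Batf3-/-. These 3 genes were thus lower in the Ccr2+ cells in both libraries, with intervals that did not overlap.

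The opposite held for Bach2, Bcl11a and Myb. Bach2 was 50.2 CPM with and 24.9 CPM without Ccr2 in WT, and 44.5 and 27.8 CPM in Batf3-/-. Bcl11a was 535 and 441 CPM in WT and 511 and 425 CPM in Batf3-/-. For Myb the values were 25.6 and 16.0 CPM in WT, with overlapping intervals, and 31.4 and 19.95 CPM in Batf3-/-. Flt3 and Mycl differed by less. The median depth was 9668 UMIs in WT cells with Ccr2 and 7894 without, and 10324.5 and 8678 in Batf3-/-, so that cells with a Ccr2 UMI were deeper.

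**Figure D4:**
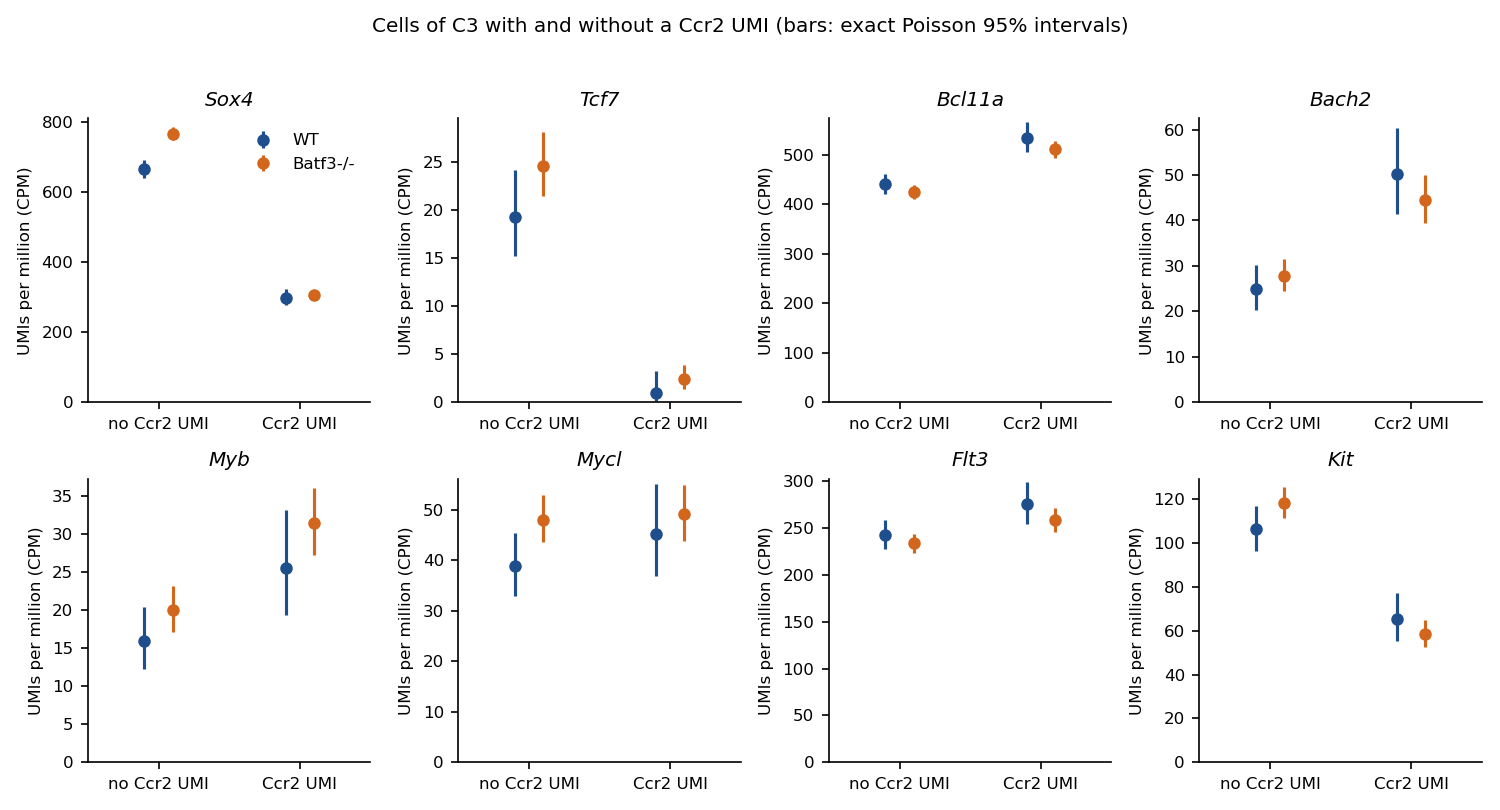
Level in CPM (linear axis from 0) of 8 genes in cells of C3 without and with a Ccr2 UMI, for both libraries, with exact Poisson 95% intervals. Sox4 is 666 and 299 CPM in WT and 767 and 305 CPM in Batf3-/- cells without and with Ccr2, while Bach2 is 24.9 and 50.2, and 27.8 and 44.5 CPM.

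At a fixed depth of 2000 UMIs per cell the same order beside Ccr2 was seen for Sox4 and Bach2. A Sox4 UMI was present in 23.2% of Ccr2+ and 51.7% of Ccr2- cells of WT C3, and in 27.4% and 54.3% in Batf3-/-. Beside Cd33 it was 25.4% against 49.8% in WT and 22.8% against 51.5% in Batf3-/-, and beside Cx3cr1 35.5% against 49.6% in WT, with overlapping intervals, and 38.9% against 51.1% in Batf3-/-. For Siglech, a pDC lectin, the shares with Sox4 were 53.7% against 46.3% in WT, with overlapping intervals, and 58.1% against 47.9% in Batf3-/-, without overlap. For Tcf4, the factor of pDCs, they lay the opposite way, at 45.1% against 50.4% in WT, again with overlap, and 45.5% against 53.9% in Batf3-/-, without. Bach2 was in 14.1% of Ccr2+ and 3.97% of Ccr2- cells in WT, and in 9.96% and 5.79% in Batf3-/-, where the intervals overlapped. Myb was in 8.47% of Cd33+ and 2.17% of Cd33- cells in WT, with overlapping intervals, and in 11.4% and 3.22% in Batf3-/-.

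Taken over all pairs at 2000 UMIs per cell, the members themselves were found together in C3 about as often as their shares alone would give. At 2000 UMIs, 47.7% of WT and 49.4% of Batf3-/- cells had Sox4, 56.7% in both had Bcl11a, 40.9% and 35.4% had Flt3, and 14.6% and 18.1% had Kit. Over 20 pairs of members with at least 5 cells from the product of the shares in both libraries, cells with both over that product had a median of 1.04 and ran from 0.772 to 1.24. The pairs above 1 in both libraries numbered 7, and those below 1 in both numbered 3. The median thus averages pairs of opposite direction, and these numbers rest on depth. The mean number of members per cell was 1.82 in WT and 1.83 in Batf3-/-, and 25.1% and 26.4% of cells held at least 3, against 24.4% and 24.9% from the product.

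Sox4 and Kit, a pair singled out after its values were seen, were found together above the product in both libraries. Sox4 was in 57.3% of Kit+ and 46.1% of Kit- cells in WT, where 59 cells had both against 49.2 from the product. In Batf3-/- it was in 58.1% (52.0% to 63.9%) of Kit+ and 47.5% (44.7% to 50.3%) of Kit- cells, and 162 cells had both against 138. The intervals overlapped in WT and not in Batf3-/-. Sox4 with Bcl11a gave 1.02 and 0.987 times the product, and Sox4 with Flt3 gave 1.03 and 1.06 times. In C14 the mean number of members per cell was 1.16 and 1.31, in C16 1.14 and 0.971, and in C19 0.292 and 0.333. Only 4 pairs in C14, and none in C16 or C19, had enough cells to be read.

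**Figure D5:**
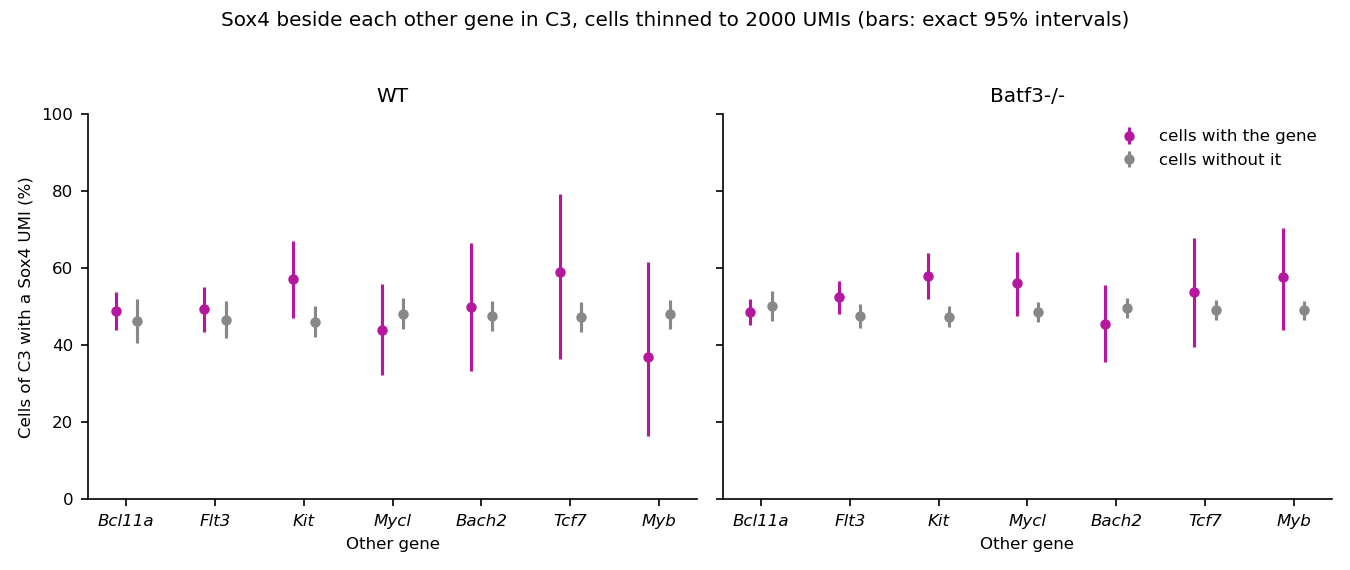
Percent of C3 cells with a Sox4 UMI (linear axis from 0) among cells with and without each of 7 other members, for the WT and the Batf3-/- library, all cells thinned to 2000 UMIs, with exact 95% intervals. For Kit the share is higher among cells with the gene in both libraries, and the intervals overlap in WT and not in Batf3-/- (58.1% against 47.5%).

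Genes of pre-DCs and of transitional DCs, a list of 16 with 14 measured in C3, were mostly high in C3 in both libraries. Over the other DC clusters 13 of 14 were at least 2-fold higher in each (3.59% of all genes in WT and 2.07% in Batf3-/-), with a median log2 ratio of 2.08 in WT and 1.97 in Batf3-/-. The list was also high in C14, the pDC cluster, with larger medians of 3.52 in WT and 2.79 in Batf3-/-. There 8 of 14 in WT and 9 of 14 in Batf3-/- were at least 2-fold higher (10.9% and 11% of all genes). In Batf3-/- 1 was lower (10.1%). The list holds genes by which the study describes C3 from these libraries, among them Siglech, Tcf4, Spib and Lag3, so that the count in C3 is not independent evidence. Between the libraries 0 of 14 were past 1.5-fold in C3 (0.4% of all genes higher and 0.303% lower), with a median of 0.09 against 0.01 over all genes. Siglech had the lowest ratio of these, at 131 CPM in WT and 102 CPM in Batf3-/- (−0.36, −0.48 to −0.23). Tcf4, the factor of pDCs, was 478 and 546 CPM (0.19, 0.13 to 0.25). For Wnt and TCF pathway genes 0 of 12, for the Myc and Max network 0 of 8 and for other progenitor genes 0 of 4 measured were past 1.5-fold in C3. With so few of all genes past the fold there, counts of 0 are what lists this short would give.

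The pattern of each gene over 34 points of cluster and library with at least 50 cells was compared with 9001 other genes on the scale log2(CPM + 5), as a description over points that share the same 2 libraries. The most alike were Cdkal1 for Sox4 (Pearson r 0.885), Rnd3 for Bcl11a (0.892), Klrd1 for Bach2 (0.813), Otud7b for Myb (0.820), Pkib for Mycl (0.829), Zfp366 for Flt3 (0.787) and Elmo1 for Kit (0.846). For Lef1 they were Trat1 (0.984), Zap70 (0.983) and Prkcq (0.981), which are T cell signalling genes. For Tcf7 it was Gm26551 (0.886), which overlaps Tcf7 on the same strand (chr11:52252371-52283014, minus strand), so that their reads are not certain to be told apart. Among the members, Tcf7 and Mycl had the lowest r, at −0.749, and Sox4 and Tcf7 the highest, at 0.553.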

How the data were processed

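Live MHCII+ CD11c+ splenocytes of WT and Batf3-/- mice were measured by droplet CITE-seq, 1 library per genotype. Per the labels and the study's methods, the authors used bcl2fastq 2.2.0, Cell Ranger on GRCm38, evening of sequencing depth between the libraries and Seurat 3.0.5, keeping cells by detected genes and by mitochondrial and ribosomal share. They deposited raw UMI counts per gene and cell, and, per cell, the fraction of UMIs on mitochondrial and ribosomal protein genes, the cluster, SingleR label and cell cycle phase. Normalized values and the 11 antibody tag rows, which carry no names, were not used here, so Kit protein was not analysed.

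Counts were summed per cluster and library and divided by all UMIs of the same cells, per 1000000 (CPM), with exact Poisson 95% intervals. Ratios carry the exact interval of the binomial split, except those with own or equal cluster shares. The latter carry an approximate normal 95% interval on the log2 scale. Shares of cells have exact Clopper-Pearson intervals. Floors of 3 counts stand for a count of 0. Ratios were counted where the mean was at least 10 CPM with at least 20 UMIs, in clusters with at least 20 cells in each library, and "past the fold" means 1.5-fold. Cells are not replicates, so no test was run and no p-value is given. The lowest and highest UMI totals of a cell were 753 and 37040 in the WT library, and 741 and 32835 in the Batf3-/- library. Cells were thinned without replacement to 1000 UMIs for shares and to 2000 for co-detection, which left out 28 and 461 WT and 42 and 508 Batf3-/- cells. Scrublet (scanpy 1.11.5) called 541 WT and 244 Batf3-/- cells as doublets, which were kept except in an alternative. Named genes are the 9 members, for each member the genes most alike in pattern, listed genes past the fold in C3, markers where a cell type was checked, and the partner genes in C3. Listed genes in C6 and C19 and leading genes of C16 and C19 were named outside this rule, after their values were seen. Members and lists were chosen with earlier results of these data known. Scripts were tested on simulated data (Python 3.11.15, numpy 2.4.6, scipy 1.17.1, pandas 2.3.3). Whether counting used strand is not given in the sources used here, so UMIs of Sox4, Tcf7, Lef1, Bcl11a, Bach2, Myb and Flt3, which have an overlapping gene on the other strand, may include it. Some marker genes and the sums that hold them are not reported here.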

Additional observations from a re-analysis of the deposited data

Results flagged for a closer look

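The ratio of Myb between the libraries had opposite signs in different clusters. It was higher in Batf3-/- in C1 (log2 ratio 0.61), C7 (0.59) and C9 (1.46), each with an interval above 0, and lower in C12 (−0.97), with an interval below 0. C12 of Batf3-/- held 31 cells and 14 Myb UMIs, and C9 held 7 Myb UMIs in WT and 28 in Batf3-/- at median depths of 1467 and 1487 UMIs per cell. With 1 library per genotype the difference between clusters was not tested.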

How the results depend on the processing

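No paired analysis was possible because each genotype has 1 library. Of the 113 pairs, 28 log2 ratios, those of Sox4 and those in C3 and C6, were recomputed under up to 6 alternatives. Of these 160 recomputed values 157 lay within the interval, and no ratio whose interval excluded 0 changed sign. Sox4 in C8, C9 and C13 went under the 1.5-fold limit with each cell weighing the same, to 0.44, 0.49 and 0.42. The highest levels lay within their interval in 46 of 72 cases. With each cell weighing the same 6 of 18 moved, Sox4 in C3 to 579 CPM in WT and 625 CPM in Batf3-/- and Lef1 in C13 to 164 and 103 CPM, and without doublets 3 of 18 moved, Tcf7 and Lef1 in C13 of WT to 226 and 158 CPM and Mycl in C4 of WT to 151 CPM. In G1 cells alone, Sox4 moved to 0.84 in C1 and to −0.77 in C16. The 14 higher and 9 lower of 113 pairs of gene and cluster became 25 and 17 of 147 with no filter. They were 18 and 10 of 121 without mitochondrial and ribosomal genes in the total, 16 and 7 of 111 without doublets, and 14 and 11 of 89 in G1 cells alone. Of the same 113 pairs, 14 and 11 passed with each cell weighing the same, and 15 and 10 with the median ratio subtracted. At 2-fold 4 and 5 of 113 passed, and 13 and 9 of 113 without the shared barcodes, an alternative chosen after seeing the data. Shares of all genes under these alternatives are not given here. The share of C3 cells with Sox4 rises with depth, from 33.1% in WT and 35.1% in Batf3-/- at 1000 UMIs to 47.7% and 49.4% at 2000, 66.0% and 68.7% at 5000, and 74.4% and 77.3% not thinned. Pairs found together above the product in both libraries were 7 at 2000 UMIs, 4 at 1000, 13 at 5000 and 12 not thinned, and those below it 3, 6 at 5000 and 9 not thinned, so their number rests on depth. With WT cluster shares the equal-share ratios were 0.40 for Sox4, 0.15 for Tcf7, −0.80 for Mycl, −0.35 for Flt3 and 0.11 for Kit, and with Batf3-/- shares −0.091 for Tcf7, −0.21 for Mycl, −0.17 for Flt3 and −0.047 for Kit. Levels were higher throughout when mitochondrial and ribosomal genes were left out of the total. The 31 Batf3-/- cells of C4 and of C12 limit every ratio there.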
